A study of Rattus norvegicus with 9 samples.

Results

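Axon guidance genes of the ephrin, Slit/Robo and netrin systems were examined in ventral cord tissue taken from rat embryos on embryonic day 14. Their probe sets were chosen by gene symbol alone, as every probe set annotated with a single symbol of an Eph receptor, an ephrin A or B, Slit1 to Slit3, Robo1 to Robo4, a netrin, Unc5, Dcc, Neo1 or Spon1. The rule found 52 probe sets of 33 genes among 31042 probe sets that are not array controls. Of these, 35 probe sets of 26 genes lay above the filter on low signal (set near an intensity of 17.3), and the tests ran over 18625 probe sets in all.

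The study measured total RNA on 9 Affymetrix rat arrays, each with RNA pooled from 5 embryos. Per the labels, 4 pools carried a mutant human SOD1 transgene (hSOD1, G93R, marked Roth), 4 carried wild-type hSOD1 (marked Chan), and 1 pool (marked SDneg) was the negative control. All pools share tissue and age, but each transgene comes with its own mark, so mutation, rat line and insertion site cannot be told apart. The labels name no promoter and do not say how many litters or founder lines stand behind a group. The SDneg pool was used as the negative control following its title, although its description also speaks of positive embryos.

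Ephrins are membrane-bound ligands that mostly repel axons carrying Eph receptors, the A and B classes pairing largely within class. Slits are secreted repellents of the ventral midline read by Robo receptors, and netrin-1, made by the floor plate, attracts axons through Dcc and repels them through Unc5. In the embryonic cord these systems steer commissural axons across the midline, and EphA4 and EphB1 help to sort limb motor axons.

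Marker genes were set beside the tissue label. Of all probe sets that are not array controls, 18625 of 31042 lay above the filter. A marker count near that share does not tell one tissue from another. All 6 measured motor neuron markers lay above the filter, with a summed intensity of 2004 to 2979 in mutant pools, 1743 to 2259 in wild-type pools and 2178 in SDneg. Of 4 measured floor plate markers 0 did, and their defining genes Shh (means of 1.26 and 1.22 in mutant and wild-type pools) and Foxa2 (3.81 and 9.004) read near the bottom of the scale. Red blood cell markers (0 of 3) and Schwann cell and crest markers (0 of 2) also did not lie above the filter, though Slc4a1 averaged 16.2 and Erbb3 13.1. Above it lay 1 of 5 vessel markers, 2 of 7 muscle markers and 3 of 7 cartilage and mesenchyme markers. So did 2 of 3 dorsal cord markers and 3 of 4 ventral progenitor markers. The ventral progenitor gene not above the filter was Olig2, with a mean of 5.83 over all pools. A low reading of any marker may belong to the probe set rather than the gene. Of the genes listed for sensory ganglion, 4 of 6 lay above the filter. That list summed to 3123 to 4731 in mutant pools, 2845 to 3246 in wild-type pools and 3232 in SDneg. Most of the sum came from Sncg (2614 to 4433 over the 8 transgenic pools). None of 21 tested markers passed between mutant and wild-type pools (0 of 21 in limma, against 0.0161% of all tested probe sets). At an unadjusted p under 0.05 stood 3 of 21 (against 4.93%). All 3 were higher in mutant pools (against 2.75%), each with a smaller p than any guidance probe set. These were Runx1 and Sncg from the sensory ganglion list and Isl1 from the motor neuron list. For each, mutant and wild-type pools overlapped, and mutant replicate 1 was the highest of the 8 transgenic pools. Runx1 had a log2 difference of 0.64 (limma unadjusted p = 0.00559 and adjusted p = 0.929). Sncg had a difference of 0.34 (limma unadjusted p = 0.00815 and adjusted p = 0.929). Isl1 differed by 0.45 (limma unadjusted p = 0.00723 and adjusted p = 0.929). Whether each gene marks only its listed cell type in this tissue was not tested. The part of the listed cell types in the results was not tested. In such bulk RNA, fewer cells of a type and less RNA per cell cannot be told apart. As a measure of RNA quality, the 3'/5' ratio of the actin control probe sets ran from 6.98 to 7.98 in mutant and from 8.19 to 19.2 in wild-type pools, beside 6.66 in SDneg. Mutant and wild-type pools did not overlap in it (exact two-sided permutation p = 0.0286), and wild-type replicate 2 held the 19.2. The GAPDH 3'/5' ratio ran from 2.492 to 2.587 in mutant and from 2.585 to 3.56 in wild-type pools, with 2.68 in SDneg. In that ratio the groups overlapped (exact two-sided permutation p = 0.0571), and wild-type replicate 2 again held the highest value.

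The first comparison asks how the guidance genes of the ventral cord differ between mutant and wild-type hSOD1. None of the 35 tested probe sets passed (0 of 35, against 0.0161% of all tested probe sets, by limma with Benjamini-Hochberg adjustment over all of them), and the smallest adjusted p was 0.929. At 0 of 35 did the 4 mutant pools lie entirely above or below the 4 wild-type pools, against 2.95% of all tested probe sets. At an unadjusted p under 0.05 stood 3 (against 4.93%): a probe set of Epha4, higher in mutant pools (1 of 35, against 2.75%), and Epha3 and Efnb3, lower (2 of 35, against 2.18%). The difference was above 0 at 18 of 35 (51.4%, against 53.7%). The log2 differences ran from −0.42 to 0.41 with a median of 0.0046, beside 0.01 over all tested probe sets. Their median size was 0.08, beside 0.10 over all tested. The 95% interval lay within 1.5-fold either way at 27 of 35 probe sets (against 82.4% of all tested). The 8 wider intervals belonged to probe sets of Epha3, Epha4 (both of its weaker ones), Dcc, Neo1, Unc5cl, Robo3 and Slit1.

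**Figure D1:**
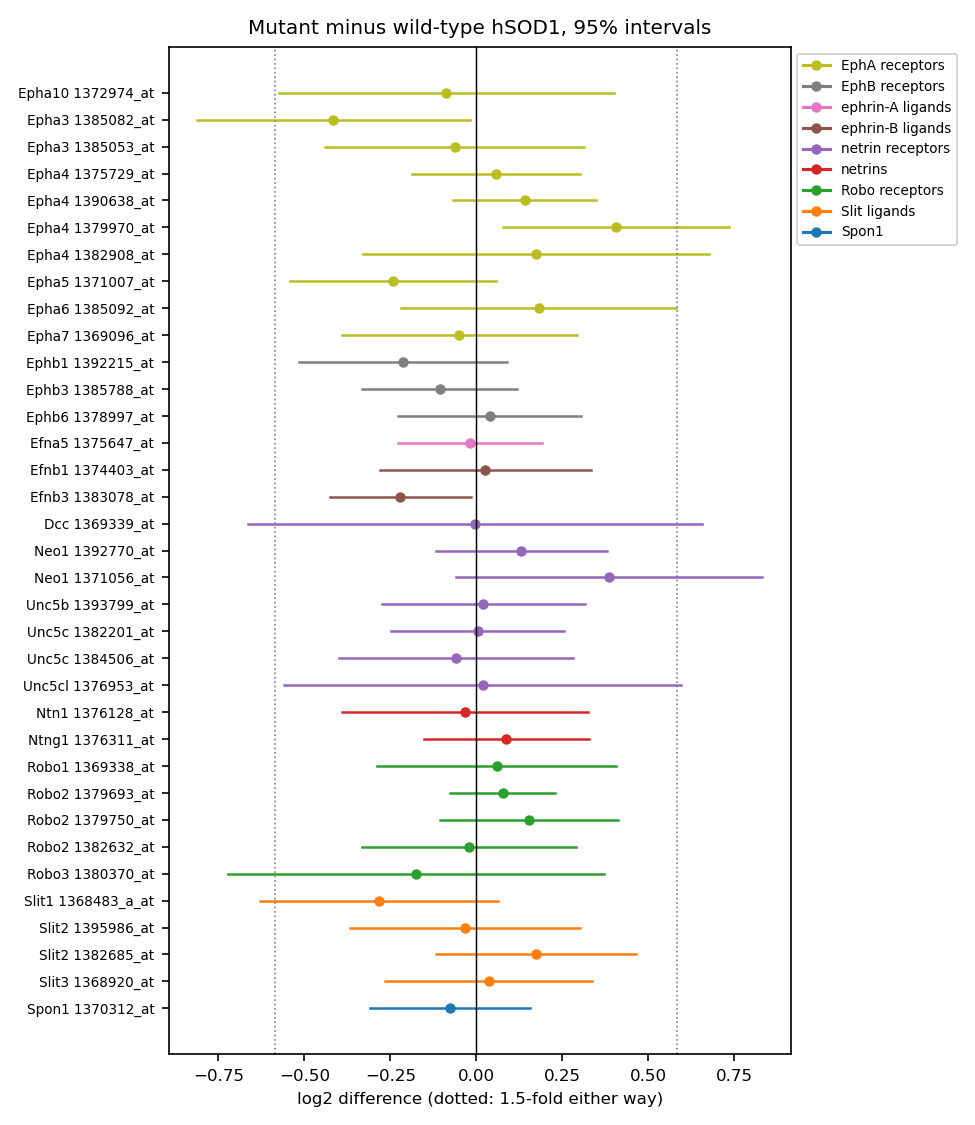
Log2 difference between mutant and wild-type hSOD1 pools (horizontal axis) for each of the 35 tested probe sets, coloured by family, with points for limma's estimate and lines for its 95% interval. Estimates run from −0.42 to 0.41, and 27 of the 35 intervals stay inside the dotted lines at 1.5-fold either way.

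Among the ligands, Slit1 to Slit3 were measured on 4 tested probe sets. Slit1 (1368483_a_at), one of the secreted midline repellents, read 30.9, 42.4, 32.6 and 48.2 in mutant replicates 1 to 4 and 42.3, 44.0, 48.3 and 58.8 in wild-type replicates 1 to 4. Mutant replicates 1 and 3 lay under all wild-type pools, and the other mutant pools lay among them. The group values were 38.5 ± 8.20 and 48.4 ± 7.44 (SD, n = 4 each). The log2 difference came to −0.28 (95% interval −0.63 to 0.06, limma adjusted p = 0.929). Slit2, which also repels motor axons from the floor plate, read 504, 368, 473 and 536 in mutant and 401, 608, 382 and 554 in wild-type replicates 1 to 4 on 1395986_at. Its groups overlapped across nearly their whole range, with a difference of −0.03 (95% interval −0.37 to 0.30, limma adjusted p = 0.982). Its other tested probe set, 1382685_at, differed by 0.17 (interval −0.12 to 0.46), in the opposite direction. Slit3 (1368920_at) averaged 49.4 ± 5.14 and 48.2 ± 6.91 in mutant and wild-type pools (n = 4 each), a difference of 0.04.

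Netrin-1, the floor plate attractant, was read above the filter by 1 of its 3 probe sets. Ntn1 (1376128_at) stood at 43.8, 60.3, 58.3 and 78.5 in mutant and 49.3, 69.3, 58.6 and 67.4 in wild-type replicates 1 to 4. Pools of both groups were mixed throughout, and the difference was −0.03 (95% interval −0.39 to 0.32, limma adjusted p = 0.983). Ntng1, a membrane-anchored netrin that does not act through Dcc, read 274, 208, 249 and 212 in mutant and 216, 214, 245 and 208 in wild-type replicates 1 to 4. Mutant replicates 1 and 3 lay above all wild-type pools and the other mutant pools among them, and the difference was 0.09 (interval −0.15 to 0.33). Spon1 codes for F-spondin, a secreted floor plate protein on which commissural axons grow. It read 321, 339, 304 and 312 in mutant and 333, 286, 331 and 407 in wild-type replicates 1 to 4, with both the lowest and the highest pool in the wild-type group. Its difference was −0.08 (interval −0.31 to 0.16).

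Of the ephrins, Efnb3 had the smallest p. Ephrin-B3 is a midline barrier that keeps EphA4-bearing axons from recrossing. Efnb3 (1383078_at) read 584, 671, 565 and 589 in mutant and 649, 819, 699 and 653 in wild-type replicates 1 to 4. Of the mutant pools, 3 lay below all wild-type pools, while mutant replicate 2 lay among them, and wild-type replicate 2 was the highest of the 8. The means were 602 ± 47.2 and 705 ± 79.3 (n = 4 each), and the negative control at 655 lay between them. The log2 difference was −0.22 (95% interval −0.43 to −0.02, SE 0.0948, limma unadjusted p = 0.0361 and adjusted p = 0.929). Efna5, an ephrin-A that repels EphA-bearing axons, read 429, 453, 411 and 409 in mutant and 395, 511, 402 and 424 in wild-type replicates 1 to 4 on 1375647_at. The groups overlapped, with a difference of −0.02 (interval −0.23 to 0.19). Efnb1 (1374403_at) differed by 0.03.

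The EphA receptors gave 10 tested probe sets, 5 with a positive and 5 with a negative difference. Epha4, which serves axon repulsion in lateral limb motor neurons, had 4 of these, and all 4 differences were positive, at 0.06 (1375729_at), 0.14 (1390638_at), 0.17 (1382908_at) and 0.41 (1379970_at). On 1379970_at it read 137, 118, 144 and 136 in mutant and 94.6, 70.3, 117 and 120 in wild-type replicates 1 to 4. Of the mutant pools, 3 lay above all wild-type pools, and mutant replicate 2 lay among them. The means of 134 ± 11.0 and 101 ± 23.1 (n = 4 each) gave a log2 difference of 0.41 (95% interval 0.08 to 0.74, SE 0.153, limma unadjusted p = 0.0195 and adjusted p = 0.929). On 1375729_at it read 1699, 1530.3, 1697 and 1442 in mutant and 1256, 1825, 1363 and 1739 in wild-type replicates 1 to 4. There the wild-type pools spanned all mutant pools, and the interval of the difference ran from −0.19 to 0.30 (limma adjusted p = 0.969).

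**Figure D2:**
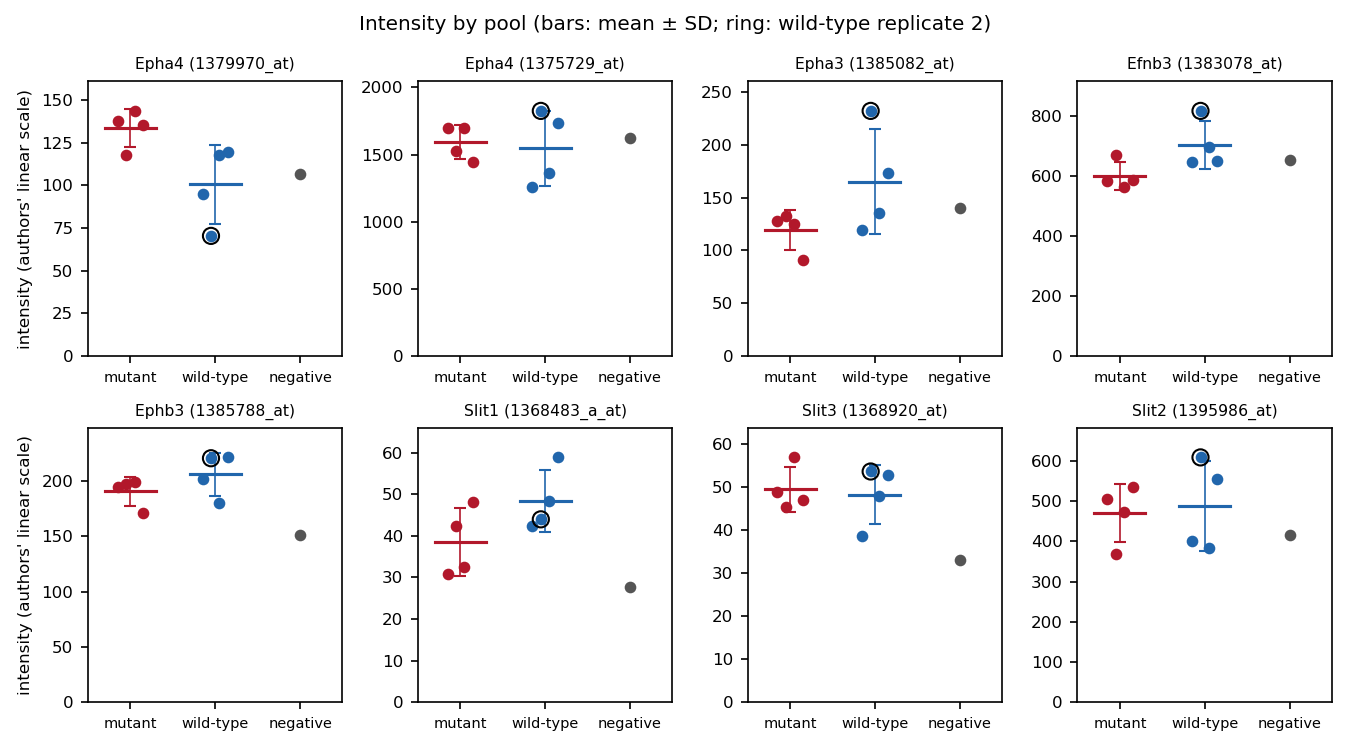
Intensity on the authors' linear scale (vertical axes, from 0) by group for 8 probe sets, with a point per pool, bars for mean ± SD (n = 4) and a ring around wild-type replicate 2. Mutant and wild-type pools overlap on every panel, wild-type replicate 2 is the lowest pool on Epha4 1379970_at (70.3) and the highest on Epha3 (232) and Efnb3 (819), and the single negative control lies below all 8 transgenic pools for Ephb3, Slit1 and Slit3.

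Epha3, a receptor of axial motor axons in the mouse, read 128, 133, 125 and 90.7 in mutant and 120, 232, 136 and 174 in wild-type replicates 1 to 4 on 1385082_at. Of the wild-type pools, 3 lay above all mutant pools and wild-type replicate 1 lay among them. The means of 119 ± 19.3 and 165 ± 49.997 (n = 4 each) gave a log2 difference of −0.42 (95% interval −0.81 to −0.02, SE 0.184, limma unadjusted p = 0.0412 and adjusted p = 0.929). The second tested Epha3 probe set, 1385053_at, differed by −0.06 (interval −0.44 to 0.31). Epha5, another ephrin-A receptor, was 257 ± 15.5 against 311 ± 71.4 (n = 4 each), a difference of −0.24 (interval −0.54 to 0.06). Epha6, Epha7 and the kinase-inactive Epha10 differed by 0.18, −0.05 and −0.09, each with an interval that includes 0.

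Among EphB receptors, Ephb1, the ephrin-B receptor of medial limb motor axons, read 251, 325, 354 and 341 in mutant and 404, 444, 348 and 289 in wild-type replicates 1 to 4. The groups overlapped, with mutant replicate 1 the lowest and wild-type replicate 2 the highest pool, and the difference was −0.21 (95% interval −0.52 to 0.09, limma adjusted p = 0.929). Ephb3 and the kinase-inactive Ephb6 differed by −0.11 and 0.04.

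Robo receptors were tested on 5 probe sets, 3 with a positive and 2 with a negative difference. Robo1, which reads Slit on commissural axons after crossing, stood at 32.9, 27.6, 29.6 and 23.4 in mutant and 28.1, 20.4, 27.3 and 32.2 in wild-type replicates 1 to 4, with a difference of 0.06 (interval −0.29 to 0.41). Robo2, its close relative, read 147, 134, 153 and 127.5 in mutant and 135, 103, 140.1 and 126 in wild-type replicates 1 to 4 on 1379750_at. The groups overlapped, with wild-type replicate 2 the lowest pool, and the difference was 0.15 (interval −0.11 to 0.41). Its probe set 1379693_at had the narrowest interval of the 35, from −0.08 to 0.23 around 0.08, and 1382632_at differed by −0.02. Robo3, which lets commissural axons approach the midline, was 36.7 ± 16.0 against 41.3 ± 13.0 (n = 4 each), differing by −0.18 (interval −0.72 to 0.37).

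Netrin receptors were tested on 7 probe sets, 5 with a positive and 2 with a negative difference. Dcc, the receptor for attraction, was the member nearest above the filter. It read 29.1, 22.7, 3.85 and 27.6 in mutant and 14.5, 17.2, 19.2 and 23.6 in wild-type replicates 1 to 4. Mutant replicate 3 was by far the lowest pool, and the other 3 mutant pools lay in the upper part of the range. The log2 difference was −0.0039 with all pools (interval −0.66 to 0.66) and 0.37 without mutant replicate 3 (limma adjusted p = 0.998). Neo1 codes for neogenin, a Dcc relative that binds netrins and repulsive guidance molecules. On 1371056_at it read 63.7, 55.9, 51.0 and 49.9 in mutant and 55.1, 22.04, 39.7 and 51.0 in wild-type replicates 1 to 4, a difference of 0.39 (interval −0.06 to 0.83, limma adjusted p = 0.929). The lowest pool was wild-type replicate 2, and on its other tested probe set, 1392770_at, the difference was 0.13 (interval −0.12 to 0.38). The receptors for repulsion Unc5b and Unc5c differed by 0.02 and by 0.0046 and −0.06, and Unc5cl, a relative that lacks their netrin-binding part, by 0.02.

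Wild-type replicate 2, the pool with the actin ratio of 19.2, stood at an edge of its group in the 3 probe sets with the smallest p. It was the highest or the lowest of the 4 wild-type pools at 18 of the 35 guidance probe sets (51.4%), and at 61.1% of all tested probe sets; the other wild-type pools were at 51.4%, 45.7% and 51.4% of the guidance probe sets. Against the mean of the other wild-type pools it lay higher by 0.68 on Epha3 1385082_at, by 0.51 on Epha5, by 0.46 on Slit2 1395986_at and by 0.29 on Efnb3 on the log2 scale. It lay lower there by −0.90 on Neo1 1371056_at, −0.84 on Epha4 1382908_at and −0.59 on Epha4 1379970_at, but higher by 0.34 on Epha4 1375729_at. Without it the mutant minus wild-type differences were 0.26 for Epha4 1379970_at, −0.24 for Epha3 1385082_at, −0.15 for Efnb3 and 0.16 for Neo1 1371056_at, and 0 of 35 guidance probe sets had an unadjusted p under 0.05 (limma). When the log2 actin ratio entered the fit, the same differences were 0.12, −0.12, −0.08 and −0.0046, again with 0 of 35 in limma. Slit1 behaved otherwise, at −0.32 and −0.35 in these fits. The share of all tested probe sets under that p in the same fits is not given here. The counts of 0 therefore cannot be read as particular to the guidance genes. Mutant and wild-type pools did not overlap in the actin ratio, so a fit with it cannot fully separate the ratio from the transgene. The part of RNA quality in these differences was not tested.

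**Figure D3:**
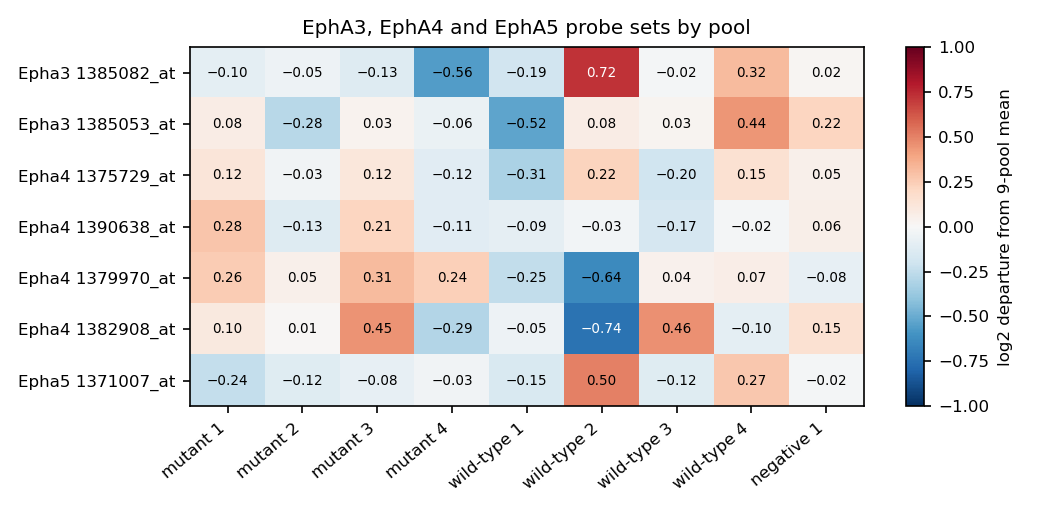
Log2 departure of each of the 9 pools (columns) from the mean of all pools, for the tested probe sets of Epha3, Epha4 and Epha5 (rows), with the value printed in each cell. Wild-type replicate 2 lies at 0.72 and 0.50 on Epha3 1385082_at and Epha5, but at −0.64 and −0.74 on Epha4 1379970_at and 1382908_at.

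**Figure D4:**
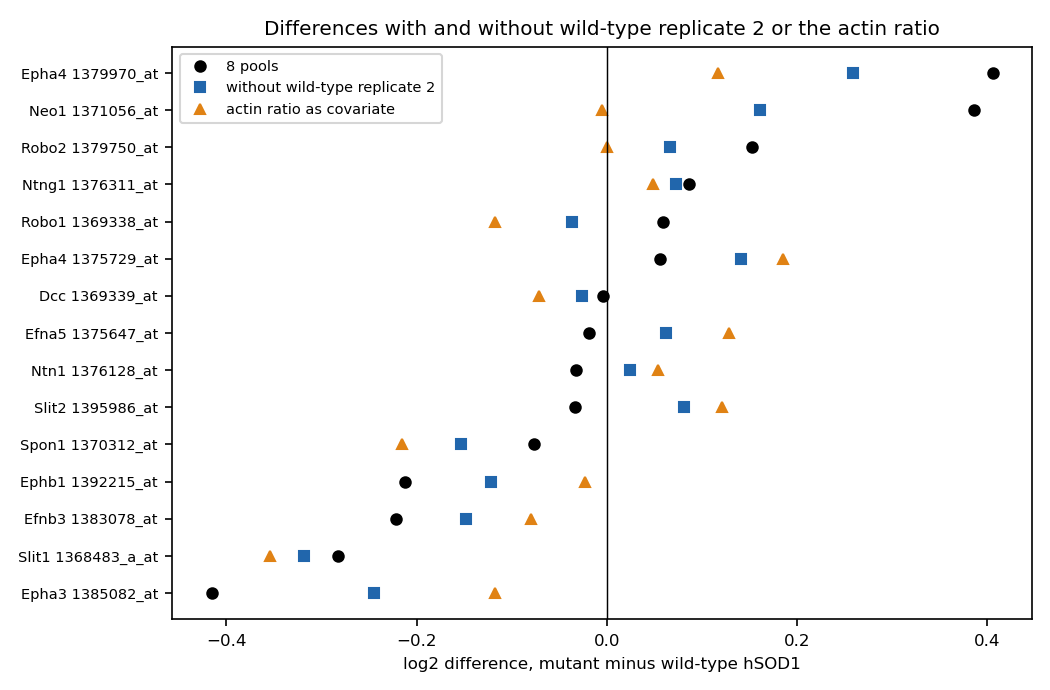
Mutant minus wild-type log2 difference (horizontal axis) for the 15 probe sets described with their pools, from all 8 pools (circles), without wild-type replicate 2 (squares) and with the actin ratio in the fit (triangles). The difference of Epha4 1379970_at goes from 0.41 to 0.26 and 0.12 and that of Epha3 1385082_at from −0.42 to −0.24 and −0.12, while that of Slit1 stays between −0.35 and −0.28.

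Genes with several tested probe sets numbered 6. All tested probe sets of Epha3, Epha4 and Neo1 had the same sign between mutant and wild-type pools (3 of 6 genes), while those of Robo2, Slit2 and Unc5c did not. The median spread between pools of a group was 0.20 on the log2 scale for the guidance probe sets and 0.18 for all tested probe sets.

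The second comparison sets both transgenes against the single negative control, which has no replicate and is assumed in the fit to vary like the transgenic pools. The titles carry an le2 tag on replicates 2 to 4 of both transgenic groups, but not on replicate 1 of either or on SDneg. The titles do not say what it stands for, and it cannot be fully told apart from the transgenes here. None of the 35 guidance probe sets passed (0 of 35 in limma, against 0% of all tested), and 2 had an unadjusted p under 0.05 (against 3.12%), Ephb3 and Slit3, both higher in transgenic pools (against 1.8%). The difference was above 0 at 17 of 35 (48.6%, against 46.5%). All 8 transgenic pools lay on the same side of the control at 8 of 35 probe sets (22.9%, against 19.7% of all tested). Above it lay Ephb3, Ntng1, Slit1 and Slit3 (4 of 35, against 9.19%), and below it Robo3, Unc5cl and the probe sets 1393799_at of Unc5b and 1384506_at of Unc5c (4 of 35, against 10.5%). The log2 differences ran from −0.72 to 0.50 with a median of −0.01, beside −0.02 over all tested.

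**Figure D5:**
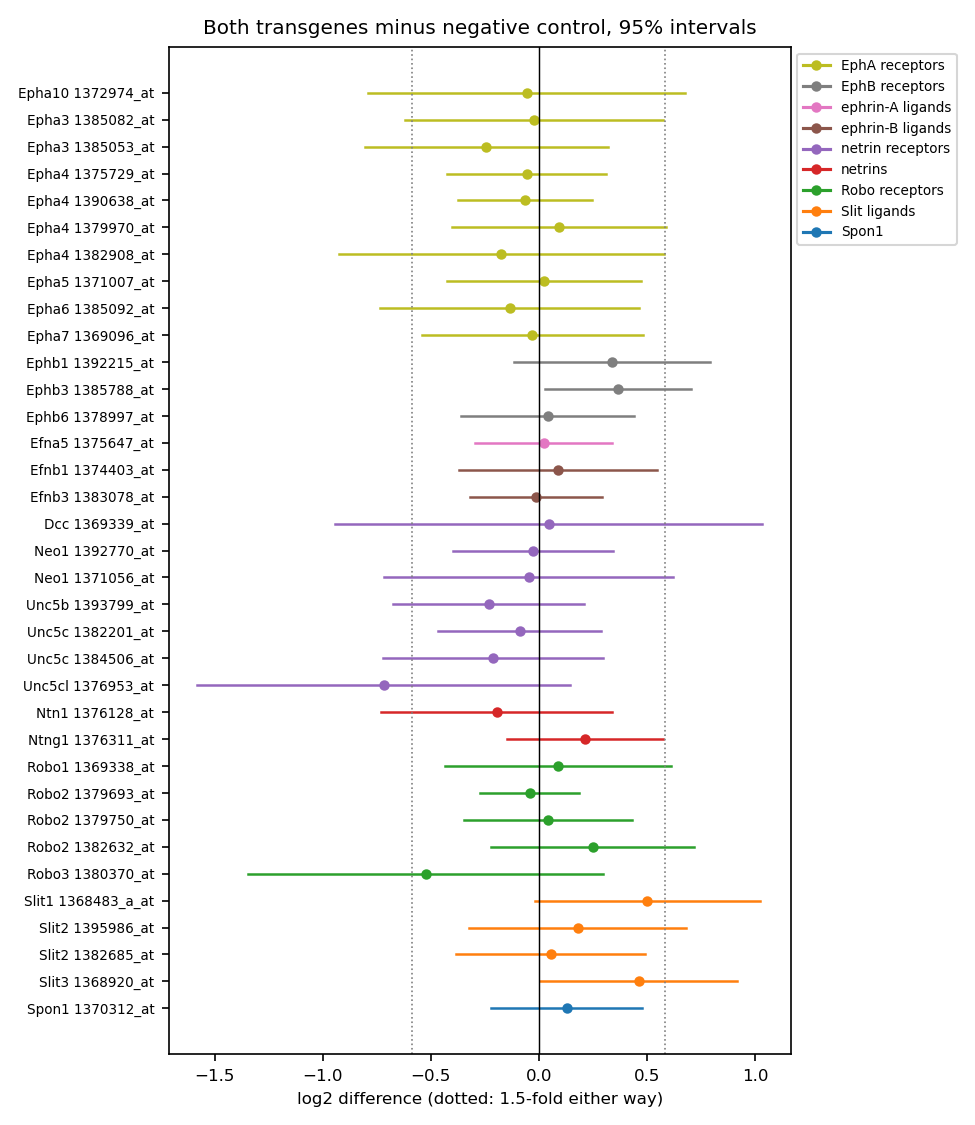
Log2 difference between both transgenes and the negative control (horizontal axis) for each of the 35 tested probe sets, coloured by family, with limma's estimate and 95% interval. All 4 Slit and all 3 EphB probe sets have positive estimates, while 8 of 10 EphA and 6 of 7 netrin receptor probe sets have negative ones. The estimate is positive at 17 of the 35 and at 46.5% of all tested probe sets. Every estimate rests on the same single control, and some probe sets share a gene, so these counts are not independent. The intervals of Ephb3 (0.03 to 0.71) and Slit3 (0.0060 to 0.92) alone leave out 0.

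The Slit genes had positive differences on all 4 tested probe sets (against 46.5% of all tested), each against the same single control. Slit3 read 48.7, 45.3, 56.8 and 46.8 in mutant and 38.6, 53.6, 47.8 and 52.8 in wild-type replicates 1 to 4, and 33.0 in the negative control. Every transgenic pool was above the control, with a log2 difference of 0.46 (95% interval 0.0060 to 0.92, SE 0.211, limma unadjusted p = 0.0474 and adjusted p = 1.00). Slit1, with the pool values given above, stood at 27.8 in the control, a difference of 0.50 (interval −0.02 to 1.02). Against the same control, Slit1 differed by 0.36 in mutant and 0.64 in wild-type pools and Slit3 by 0.48 and 0.44. Slit2 differed by 0.18 (1395986_at) and 0.05 (1382685_at), with transgenic pools on both sides of the control.

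Ephb3, an ephrin-B receptor of commissural and other axons, read 194, 197, 199 and 171 in mutant and 202, 220.2, 179.9 and 221 in wild-type replicates 1 to 4, and 151 in the negative control. The lowest transgenic pool, mutant replicate 4, was still above the control, and the log2 difference was 0.37 (95% interval 0.03 to 0.71, SE 0.157, limma unadjusted p = 0.0366 and adjusted p = 1.00). It was 0.31 for mutant and 0.42 for wild-type pools. Ephb1 differed by 0.34 (interval −0.12 to 0.79), with mutant replicate 1 at 251 under the control at 267, and Ntng1 by 0.21.

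On the lower side, Unc5cl read from 15.1 to 43.6 in the 8 transgenic pools (means of 32.0 in mutant and 31.5 in wild-type pools), while SDneg stood at 55.0, a log2 difference of −0.72 (interval −1.58 to 0.14). Robo3 read from 19.2 to 56.8 in mutant and from 29.6 to 52.9 in wild-type pools against 57.1 in the control. Mutant replicate 4 lay just under the control, and the difference was −0.52 (interval −1.34 to 0.29). Unc5b (1393799_at) and Unc5c (1384506_at) differed by −0.23 and −0.21. The midline gene Ntn1 stood at 69.8 in the control, within the range of the transgenic pools, as did Dcc at 17.6, Robo1 at 25.4 and Epha4 1375729_at at 1621. Taken singly against the control, mutant and wild-type pools gave 0 of 35 calls each in limma (against 0% of all tested in both), with 0 and 2 guidance probe sets at an unadjusted p under 0.05 (against 2.29% and 4.28%).

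The remaining 17 probe sets lay at or under the filter, with mean intensities from 0.936 to 13.4. They were the only probe sets of 7 genes, the receptor genes Epha2, Epha8, Ephb4 and Unc5a and the ligand genes Efna1, Efna4 and Ntn5, and 9 further probe sets of 8 genes that also had a tested one. Efna4 (1384175_at) was nearest below the filter, with a mean of 13.4. No level can be read from them, and a low reading may belong to the probe set rather than the gene.

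Signalling partners of these receptors, such as adaptors, cytoskeletal regulators and co-receptors, formed a list of 46 genes, of which 43 were tested with 1 probe set each. Between mutant and wild-type pools 0 were called higher and 0 lower in limma, with 3 of 43 at an unadjusted p under 0.05 (2 higher and 1 lower in mutant pools, against 4.93% of all tested). The median difference was 0.03, beside 0.01 over all tested. Cdc42, a regulator of the growth cone cytoskeleton, read 2940.4, 2953, 3061 and 2772 in mutant and 2351, 2297, 2578 and 2543 in wild-type replicates 1 to 4 on 1391127_at. The groups did not overlap, as at 2.95% of all tested probe sets, with a log2 difference of 0.26 (limma unadjusted p = 0.00108 and adjusted p = 0.667), and the control at 2328 lay with the wild-type pools. Its other probe sets differed by 0.06 (1367475_at) and 0.0089 (1370825_a_at). Against the negative control 0 of 43 passed in limma, with 1 of 43 at an unadjusted p under 0.05 (against 3.12%), the actin regulator Evl. Its 2 tested probe sets went opposite ways. On 1367861_at all 8 transgenic pools lay above the control, by 0.22 on the log2 scale (limma unadjusted p = 0.0443), and on 1389921_at all 8 lay below it (12.5 to 20.7 against 31.5), by −0.67 (95% interval −1.18 to −0.15, limma unadjusted p = 0.0157, adjusted p = 1.00).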

How the data were processed

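Total RNA was hybridised to 9 arrays, 1 per pool of 5 embryos. Each deposited value is a linear intensity of a probe set on an array. The authors' software is not stated in the labels or the deposited table; after trimming 2% at each end the array means were all 150.05, so scaling by the authors was read from the values. Array medians were 31.0 to 33.9. For arrays there is no read depth, and their number limits the precision.

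The 57 control probe sets served only for the 3'/5' ratios. Gene symbols came from the platform annotation (20826 probe sets with 1 symbol, 436 with several, 9780 with none); the Entrez identifiers of all 52 guidance probe sets were found in the GRCr8 gene table with 0 symbols changed. Genome positions and probe sequences were not used here.

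Intensities were taken to log2 after adding 8.25, the 25th percentile over the whole table. Probe sets at or under the 40th percentile of mean log2 over all 9 arrays were left out. Fits used limma 3.58.1 in R 4.3.3 (eBayes with trend), adjusted over all 18625 probe sets with a threshold of 0.05, on the 8 transgenic arrays for mutant against wild-type and on all 9 against the negative control. The 95% intervals come from limma's moderated standard errors. The mutant against wild-type fit was also run on simulated data with independent normal noise of equal spread in both groups. That noise held no outlying pool and no RNA quality difference, so it cannot show how the fit handles these. The labels call the 8 transgenic pools biological replicates.

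Values by pool are given for the smallest p of each of 9 families, any further unadjusted p under 0.05, the smallest p of a family against the negative control where under 0.05, and always for Slit2, Robo1, Ntn1, Dcc, Epha4 and Efnb3; other members and probe sets are given by differences. Partner genes are the 4 smallest p at most. The members, lists, tests and alternatives were chosen with earlier results of these data known. Alternatives were quantile normalization, median centring, other pseudocounts (2.06 and 33.0), no filter or the 60th percentile, no trend, weighted arrays, a single probe set for each gene, a covariate (the titles' le2 tag, or the actin ratio), leaving out the transgenic arrays without the tag, all 9 arrays, a block for replicate number, and omitting each array in turn.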

Additional observations from a re-analysis of the deposited data

Results flagged for a closer look

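In 74 groups of 4 pools tested with Dixon's criterion, 4 had a pool far from the others; chance gives about 1 in 20. The Epha6 probe set 1385092_at read 46.5 in wild-type replicate 4 and 26.3 to 27.9 in the other wild-type pools. Ephb3 (1385788_at) read 171 in mutant replicate 4 and 194 to 199 in the other mutant pools, so the lowest transgenic pool still lay above the negative control at 151. The Robo2 probe set 1382632_at read 79.5 in mutant replicate 2 and 59.5 to 61.9 in the other mutant pools. The beta-actin 3'/5' ratio was 19.2 in wild-type replicate 2 and 8.19 to 9.20 in the other wild-type pools.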

How the results depend on the processing

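The count of guidance probe sets past the threshold was 0 in limma in all 4 comparisons and under every alternative run (22 between mutant and wild-type pools, 21 against the negative control). The count at an unadjusted p under 0.05 between mutant and wild-type pools was 3 and ranged from 0 (without wild-type replicate 2, without mutant replicate 3, or with the actin ratio as a covariate) to 5 (without wild-type replicate 1 or 4). With both transgenes against the negative control it was 2 and ranged from 0 to 3. The shares of all tested probe sets in the same fits are not set beside these counts. The replicate block gave 0 calls and 3 at an unadjusted p under 0.05. Departures from the group mean correlated between same-numbered pools at 0.12, 0.09, −0.07 and 0.20 for replicates 1 to 4. Against wild-type pools of other numbers the correlations ran from −0.11 to 0.10, −0.18 to 0.21, −0.06 to 0.08 and −0.23 to 0.05. The labels do not state a pairing, and the numbers were not taken as pairs. Epha4 1379970_at, Epha3 1385082_at and Efnb3 kept their direction throughout, between 0.12 and 0.49, −0.59 and −0.12, and −0.27 and −0.08, as did Ephb3 and Slit3 against the negative control, between 0.32 and 0.40 and between 0.31 and 0.53.

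Some differences turned sign, among them that of Neo1 1371056_at, one of the larger ones at 0.39; the cause was not tested. With the actin ratio as a covariate Efna5 was 0.13, Neo1 1371056_at −0.0046, Robo2 1379750_at −0.00010, Slit2 1395986_at 0.12, Robo1 −0.12 and Ntn1 0.054. With array weights Efna5 was 0.030 and Slit2 0.057, with the larger pseudocount Dcc was 0.033, and with only the arrays that carry the le2 tag Ntn1 was 0.0050 and Epha4 1375729_at −0.069. When each replicate was left out, the differences ranged from −0.15 to 0.37 for Dcc, −0.060 to 0.063 for Efna5, −0.037 to 0.14 for Epha4 1375729_at, −0.15 to 0.091 for Ntn1, −0.036 to 0.13 for Robo1, −0.14 to 0.082 for Slit2 and −0.15 to 0.013 for Spon1. The mutant minus wild-type difference in the actin ratio was −3.97 and ranged from −5.00 to −1.33 (without wild-type replicate 2), with exact permutation p from 0.0286 to 0.200.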
